A study of Mus musculus with 7 samples.

Results

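The genes described here are 9 markers of Kupffer cells and other macrophages, Csf1r, Sfpi1, Ptprc, Clec4f, Marco, Cd14, Cd68, Cd5l and Lyz2, out of 22365 mouse genes with protein-coding transcripts. They were chosen by name, with earlier results of these data known. A window was drawn around each gene from 20 kb before the gene body to 20 kb after it. A hotspot was taken when at least 1 bp of it lay in a window, which gave 85 of the 190871 hotspots in 3 lists. Hotspots of different lists that overlapped by at least 1 bp were merged into regions, and 49 of 94491 regions lay in the windows.

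All 7 labelled samples came from liver of male C57BL/6 mice at an age of 8 weeks. Benzonase and Cyanase, endonucleases that stay active in detergent, were each used on pulverized, intact frozen tissue at 0.25, 1 and 4 U, with 1 sample per dose, whereas DNase I was used on nuclei purified from fresh tissue. The authors pooled the libraries of each nuclease before calling hotspots, stretches of dense cleavage. The lists used here hold 60910 Benzonase, 57675 Cyanase and 72286 DNase I hotspots on mm9 (NCBIM37). The paper gives a lower number for each nuclease, and the reason for this difference was not tested. The labels list 1 DNase I sample, while the header of the DNase I list names 2 pooled libraries. A list holds positions without tag numbers, so the depth behind a hotspot is unknown and the variation among animals or libraries could not be measured. The nuclease, the freezing and the purification of nuclei changed together between DNase I and the other enzymes, and their parts in any difference cannot be told apart.

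Kupffer cells are the resident macrophages of the liver. They sit in the sinusoids, the small vessels between plates of hepatocytes, where they take up bacteria, worn-out red cells and lipoproteins from the blood, and they depend on signals through the CSF1 receptor and on the transcription factor PU.1, which Sfpi1 encodes. Hepatocytes make up most of the tissue mass, so that macrophage chromatin is a minor part of what a nuclease meets in whole liver. In such bulk samples, fewer macrophages and less accessibility per macrophage cannot be told apart.

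The liver label was checked against 15 hepatocyte genes, among them Alb, Ttr, Apoa1 and Apob. All 15 had a transcription start site (TSS) inside a hotspot of each of the 3 lists.

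The sequences just upstream of the TSS are shown for 6 of the 7 members whose TSS lay in a hotspot, Csf1r being left out, because the lists differed at these sites, and they are followed by the centre of a region that Benzonase and Cyanase found inside Sfpi1 where DNase I did not. Each is written 5′ to 3′ on the strand of its gene from mm9 (NCBIM37). Capitals mark GAGGAA, a core of sites of PU.1, or its reverse complement TTCCTC, and TGANTCA, the letters of AP-1 sites, on either strand. The 200 bp upstream of Clec4f are chr6:83606182-83606381 (minus strand), those of Marco chr1:122401662-122401861 (minus), those of Cd5l chr3:87161603-87161802 (plus), those of Cd68 chr11:69479656-69479855 (minus), those of Ptprc chr1:140071883-140072082 (minus) and those of Lyz2 chr10:116719378-116719577 (minus). The central 300 bp of the Sfpi1 region are chr2:90923119-90923418 (plus).
Clec4f: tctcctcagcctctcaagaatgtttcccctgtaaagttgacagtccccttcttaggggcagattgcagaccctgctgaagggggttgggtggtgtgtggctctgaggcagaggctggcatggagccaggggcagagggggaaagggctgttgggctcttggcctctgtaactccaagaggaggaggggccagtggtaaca
Marco: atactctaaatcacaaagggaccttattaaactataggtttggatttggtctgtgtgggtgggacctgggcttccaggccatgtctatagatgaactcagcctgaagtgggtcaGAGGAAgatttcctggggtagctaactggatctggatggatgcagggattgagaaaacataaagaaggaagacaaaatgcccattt
Cd5l: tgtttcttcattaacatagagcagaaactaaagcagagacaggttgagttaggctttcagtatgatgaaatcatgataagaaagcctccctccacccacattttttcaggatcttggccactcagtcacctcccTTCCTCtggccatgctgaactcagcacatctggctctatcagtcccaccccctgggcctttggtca
Cd68: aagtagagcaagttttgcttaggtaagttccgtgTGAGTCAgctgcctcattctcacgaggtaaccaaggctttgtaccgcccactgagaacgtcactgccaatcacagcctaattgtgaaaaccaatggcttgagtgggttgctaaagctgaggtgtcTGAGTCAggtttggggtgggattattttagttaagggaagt
Ptprc: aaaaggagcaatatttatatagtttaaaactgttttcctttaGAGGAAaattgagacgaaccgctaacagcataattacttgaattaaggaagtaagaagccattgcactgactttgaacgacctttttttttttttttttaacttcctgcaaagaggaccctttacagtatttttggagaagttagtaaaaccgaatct
Lyz2: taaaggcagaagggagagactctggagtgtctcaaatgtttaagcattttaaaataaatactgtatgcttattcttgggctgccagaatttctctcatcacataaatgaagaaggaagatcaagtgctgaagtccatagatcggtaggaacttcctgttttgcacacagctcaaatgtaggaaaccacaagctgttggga
Sfpi1, centre of the region: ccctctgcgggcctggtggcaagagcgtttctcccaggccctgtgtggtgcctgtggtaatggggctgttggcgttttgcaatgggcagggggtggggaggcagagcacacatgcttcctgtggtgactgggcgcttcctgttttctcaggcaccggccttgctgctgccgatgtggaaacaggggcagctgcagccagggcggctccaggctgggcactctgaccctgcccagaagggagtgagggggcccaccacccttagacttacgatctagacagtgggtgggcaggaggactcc

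In these stretches GAGGAA started at -86 in Marco and at -158 in Ptprc, counted from the TSS with upstream negative, and its reverse complement ran from -66 to -61 in Cd5l. Cd68 held TGANTCA at -166 and at -41. Over the longer stretch from 250 bp before to 50 bp after the 5′ most TSS, to which the next counts refer, 7 of the 9 members held GAGGAA on either strand, Csf1r and Clec4f being the exceptions, against 28.0% of the promoters of all coding genes. TGANTCA was present in Csf1r, Cd68 and Cd14, against 6.80% of all promoters. None of the 9 held the longer GAGGAAGT, which contains GAGGAA and occurred in 3.13% of all promoters. A TATAAA was found in Ptprc alone among the members (13.4% of all promoters) and a GGGCGG in Cd68 alone (44.0% of all promoters). Among the promoters of genes with few CpGs at the TSS, a class defined further on that held all 9 members, the shares were 32.4% for GAGGAA, 10.9% for TGANTCA, 4.42% for GAGGAAGT, 23.1% for TATAAA and 10.6% for GGGCGG. At the other TSSs of Sfpi1, which are left out of these counts, GAGGAAGT occurred 1 time and TATAAA 2 times around 90936253, and GGGCGG 1 time around 90936937. A match is a string of letters and was not tested as a binding site.

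The printed stretches differed in composition. The GC content of the 200 bp was highest in Clec4f at 58.5% and lowest in Ptprc at 32.0%, and Clec4f, Marco and Cd5l held no CpG there. The region centre in Sfpi1 had 64.0% GC with 8 CpGs.

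**Figure D1:**
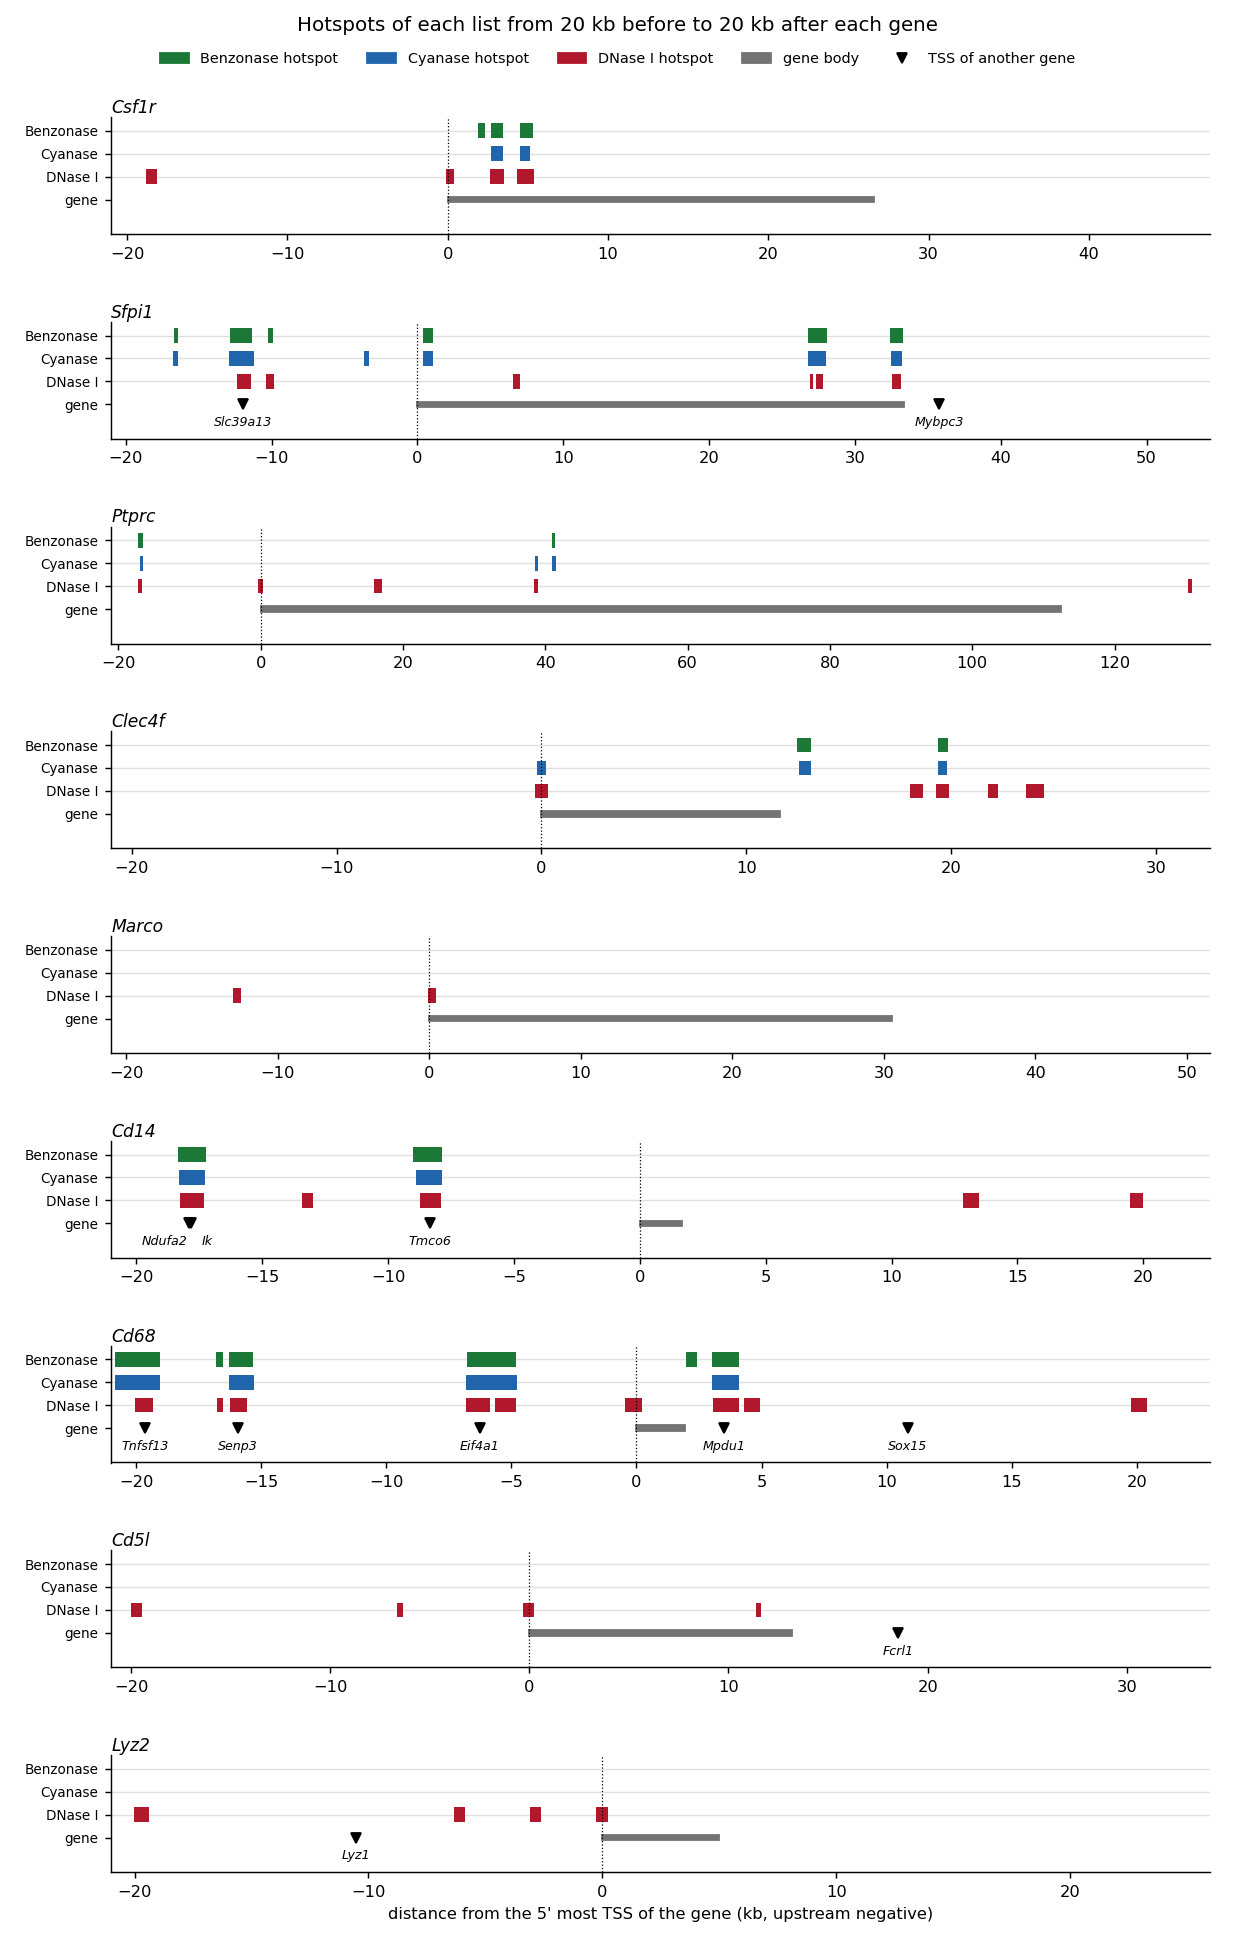
Hotspots of the Benzonase (green), Cyanase (blue) and DNase I (red) lists in the window of each gene, against the distance from its 5′ most TSS in kb with upstream negative; grey bars are gene bodies and triangles the TSSs of other coding genes. The windows of Marco, Cd5l and Lyz2 held DNase I hotspots and no others, and the stacks of all 3 colours in the Cd14 and Cd68 windows lay at other genes.

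Csf1r encodes the receptor for CSF1 and IL-34, on which macrophages depend for growth and survival. The gene (ENSMUSG00000024621.8) lies on the plus strand at chr18:61265226-61291803 and has 22 exons. Its window held 3 Benzonase, 2 Cyanase and 4 DNase I hotspots. The TSS was covered by DNase I over 497 bp, from -86 to 410 bp, and lay in no hotspot of the other lists. The closest Benzonase hotspot was 1.61 kb and the closest Cyanase hotspot 2.41 kb from an annotated Csf1r TSS.

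Inside the gene the 3 lists met. A common region, one with a DNase I hotspot and a hotspot of at least 1 other list, ran from 2.64 to 3.53 kb after the TSS in intron 2. Another ran from 4.32 to 5.37 kb, over exon 4 and the introns beside it. Each held 1 hotspot of each list. Intron 2 of Csf1r is known to carry an element that drives the gene in macrophages, and whether the region covers it was not tested. A Benzonase hotspot of 433 bp without partners lay in the same intron, from 1.92 to 2.35 kb, and a DNase I hotspot without partners lay upstream, from -18.8 to -18.1 kb. Csf1r was thus marked by all 3 nucleases in the gene body and by DNase I alone at its start.

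Sfpi1 encodes PU.1, a transcription factor required to form macrophages. The gene (ENSMUSG00000002111.8) lies on the plus strand at chr2:90922547-90955913, and each list had 6 hotspots in its window. Coding transcripts start at 90922547, 90936253 and 90936937, and none of these TSSs lay in a hotspot of any list. Sfpi1 was the member with equal counts in the 3 lists.

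The positions differed between the lists all the same. A Benzonase-Cyanase unique region, one without a DNase I hotspot, ran from 90922936 to 90923601 in the intron after exon 1 of the upstream transcript. It began 389 bp after the TSS at 90922547 and lay from -14.0 to -13.3 kb of the TSS at 90936937. Its Benzonase hotspot was 655 bp wide and its Cyanase hotspot 650 bp. Sfpi1 is known to need a distal upstream element in myeloid cells, and whether this region is that element was not tested. A DNase I unique hotspot of 512 bp lay from -7.85 to -7.34 kb of the TSS at 90936937, and a Cyanase hotspot of 296 bp without partners, with 73.3% GC, lay upstream of the gene from 90918899 to 90919194. The upstream TSS is the start of a transcript that the annotation calls putative.

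Further into Sfpi1, common regions ran from 12.4 to 13.7 kb and from 18.0 to 18.9 kb after the TSS at 90936937, and each held hotspots of all 3 lists. The second of them overlapped exon 5. The nearest TSS to both was that of Mybpc3, a heart muscle gene downstream. The regions upstream included the promoter of Slc39a13, a zinc transporter gene, which lay in hotspots of all 3 lists. Of the hotspots in the Sfpi1 window, 1 Benzonase, 2 Cyanase and 1 DNase I hotspot were closer to an Sfpi1 TSS than to any other.

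Ptprc encodes CD45, a tyrosine phosphatase on the surface of blood cells other than red cells and platelets, so it marks lymphocytes and neutrophils as well as macrophages. The gene (ENSMUSG00000026395.8) lies on the minus strand at chr1:139959438-140071882 with 46 exons, and its window of 152 kb was the longest. It held 2 Benzonase, 3 Cyanase and 5 DNase I hotspots. The hotspot at the TSS came from DNase I, spanned 693 bp from -360 to 332 bp and had 37.8% GC. The closest Benzonase and Cyanase hotspots were 16.6 and 16.5 kb away.

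Those closest hotspots formed a common region with a DNase I hotspot upstream, from -17.3 to -16.5 kb. Intron 2 held a DNase I unique region of 1131 bp from 15.9 to 17.0 kb with 40.7% GC. The same intron held a region shared by Cyanase and DNase I from 38.4 to 39.0 kb with 43.2% GC, and 1 Benzonase-Cyanase unique region with a hotspot of each of these enzymes. A last DNase I hotspot lay past the 3′ end, from 130 to 131 kb, and was nearest to another gene. Hotspots of all 3 lists were therefore present around Ptprc, with DNase I alone at the start.

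Clec4f encodes a C-type lectin that binds glycans and, in the mouse, is made by Kupffer cells. The gene (ENSMUSG00000014542.2) lies on the minus strand at chr6:83594536-83606181. Its window held 2 Benzonase, 3 Cyanase and 5 DNase I hotspots, all of them nearest to the Clec4f TSS. Clec4f was the sole member with a Cyanase hotspot at its TSS, from -224 to 224 bp, inside a DNase I hotspot from -304 to 309 bp. The Cyanase hotspot was 449 bp wide, below the lower quartile of that list, 489 bp. No Benzonase hotspot was closer than 12.5 kb.

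The other Clec4f hotspots lay past the 3′ end. A common region with hotspots of all 3 lists ran from 19.3 to 19.9 kb, and a Benzonase-Cyanase unique region with hotspots of both enzymes from 12.5 to 13.1 kb. DNase I unique regions ran from 18.0 to 18.6 kb, from 21.8 to 22.3 kb and from 23.7 to 24.6 kb. The DNase I hotspots around the common region thus extended a cluster in which the other enzymes had 1 hotspot each.

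Marco encodes a scavenger receptor with a collagen-like stem that binds bacteria. The gene (ENSMUSG00000026390.1) lies on the minus strand at chr1:122371115-122401661. Its window held 0 Benzonase, 0 Cyanase and 2 DNase I hotspots. One of the DNase I hotspots covered the TSS, from -96 to 441 bp, and the other lay upstream, from -12.9 to -12.4 kb. The closest Benzonase hotspot was 136 kb and the closest Cyanase hotspot 78.0 kb from the TSS. Marco was the member farthest from any Benzonase or Cyanase hotspot.

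Cd14 encodes the co-receptor that passes bacterial lipopolysaccharide to TLR4. The gene (ENSMUSG00000051439.6) lies on the minus strand at chr18:36884728-36886390 and has 2 exons. Its window held 2 Benzonase, 2 Cyanase and 5 DNase I hotspots, none of them in the gene body. The common regions of the window covered the promoter of Tmco6 and the shared promoter of Ik and Ndufa2. The closest hotspot was in the Tmco6 region at about the same distance in each list, 7.87 kb for Benzonase, 7.87 kb for Cyanase and 7.91 kb for DNase I. A DNase I unique region from 12.9 to 13.5 kb past the start was nearest to the Cd14 TSS, and others, beginning at -13.4 kb and at 19.5 kb, were nearest to other genes. Cd14 itself was not marked by any of the nucleases.

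Cd68 encodes a glycoprotein of late endosomes and lysosomes that is abundant in macrophages. The gene (ENSMUSG00000018774.7) lies on the minus strand at chr11:69477715-69479655 among 7 other coding genes. Its window held 6 Benzonase, 4 Cyanase and 9 DNase I hotspots, the highest DNase I count of the members. The Cd68 TSS lay in a DNase I unique region of 683 bp, from -448 to 234 bp, which was the sole hotspot of any list that was nearest to it.

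The remaining hotspots of the Cd68 window were nearest to the TSSs of its neighbours. The promoters of Mpdu1, Eif4a1, Senp3 and Tnfsf13 each lay in hotspots of all 3 lists. The Benzonase hotspot at Eif4a1, a translation initiation factor gene, was 1994 bp wide, at percentile 97.0 of the widths in that list. A window with many hotspots of all nucleases therefore held a TSS that DNase I alone marked.

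Cd5l encodes a secreted protein of macrophages that binds IgM and lipids. The gene (ENSMUSG00000015854.6) lies on the plus strand at chr3:87161803-87174996. Its window held 0 Benzonase, 0 Cyanase and 4 DNase I hotspots, so that hotspots around it were called for DNase I alone. DNase I marked the TSS over 539 bp, from -308 to 230 bp. Upstream hotspots lay from -6.66 to -6.36 kb and at the edge of the window up to -19.4 kb, and a hotspot of 291 bp in intron 5 was nearer to Fcrl1. The closest Benzonase and Cyanase hotspots were 53.1 kb from the TSS.

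Lyz2 encodes the lysozyme that macrophages and neutrophils secrete to break bacterial cell walls. The gene (ENSMUSG00000069516.6) lies on the minus strand at chr10:116714390-116719377, and its window held 0 Benzonase, 0 Cyanase and 4 DNase I hotspots. At the TSS a DNase I hotspot spanned 487 bp, from -263 to 223 bp, and another lay from -3.07 to -2.61 kb. The closest Benzonase and Cyanase hotspots were 38.0 kb from the TSS. The remaining DNase I hotspots, from -6.36 to -5.88 kb and at the far end of the window, were nearest to Lyz1, a near copy of Lyz2 whose TSS at -10.5 kb was in no hotspot. Reads shared by such copies could not be followed in lists of positions.

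**Figure D2:**
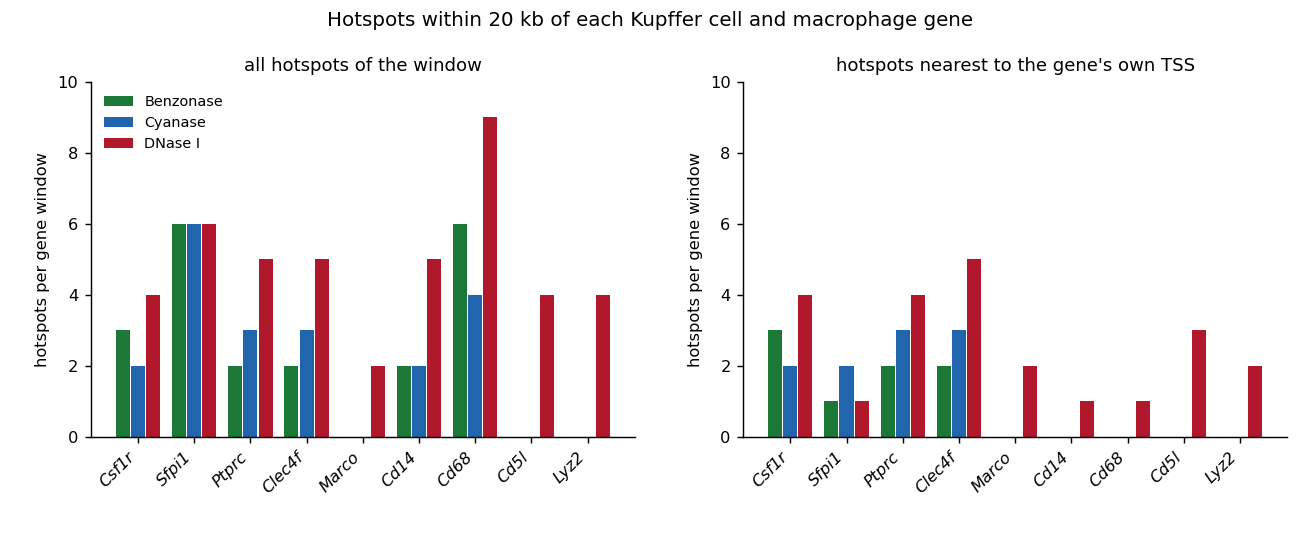
Hotspots of each list per gene window, for all hotspots of the window (left) and for those whose nearest coding TSS was that of the gene (right). DNase I counts ran from 2 to 9 on the left, and the Benzonase and Cyanase bars of Cd14 and Cd68 fell to 0 on the right.

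Across the windows, the 9 genes had 21 Benzonase, 20 Cyanase and 44 DNase I hotspots. The median per gene was 2 for Benzonase, 2 for Cyanase and 5 for DNase I, where the median over all coding genes was 3 in each list. Scaled to window length, the members had a median of 0.387 Benzonase, 0.300 Cyanase and 0.818 DNase I hotspots per 10 kb, and all coding genes 0.383, 0.361 and 0.424 in the same order. The members' medians were therefore above those of all coding genes in the DNase I list by both measures, below them in the Cyanase list by both, and in the Benzonase list below by number and about equal by length.

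A window with at least 1 Benzonase hotspot was found for 6 of the 9 members (82.2% of all coding genes), with a Cyanase hotspot for 6 of 9 (80.7%) and with a DNase I hotspot for 9 of 9 (79.3%). DNase I hotspots without any of the other lists were present in 3 of 9 windows, those of Marco, Cd5l and Lyz2, against 2.74% of all coding genes.

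Many of these hotspots were nearest to the TSS of another gene. The nearest coding TSS was that of the member for 8 of 21 Benzonase, 10 of 20 Cyanase and 23 of 44 DNase I hotspots. In each list 7 hotspots covered the TSS of another gene. Counted by nearest TSS, the members still had more DNase I hotspots than hotspots of either other list.

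The contrast was sharpest at the TSS. A Benzonase hotspot covered the TSS of 0 of the 9 members (57.4% of all coding genes), a Cyanase hotspot that of 1 of 9, Clec4f (55.7%), and a DNase I hotspot that of 7 of 9 (47.4%). DNase I alone marked 6 of 9, Csf1r, Ptprc, Marco, Cd68, Cd5l and Lyz2, against 0.867% of all coding genes. Benzonase or Cyanase without DNase I marked 0 of 9, against 11.8%. The remaining members, Sfpi1 and Cd14, had no TSS in a hotspot of any list.

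The members share a base composition that the choice of genes did not use. The observed to expected ratio of CpG within 500 bp of the 5′ most TSS was below 0.4 in all 9. The same held for 39.8% of all coding genes, and coding genes below 0.4 are called CpG-poor here. The ratio ran from 0.0569 in Cd5l to 0.395 in Cd14 with a median of 0.163, and the median over all coding genes was 0.553. For Sfpi1 the ratio was 0.176 at the upstream TSS, 0.341 at 90936253 and 0.323 at 90936937.

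Fewer CpG-poor genes are marked in each list, so the members were also set beside the 8897 coding genes of this kind. Benzonase marked 0 of 9 members and 18.1% of CpG-poor genes, Cyanase 1 of 9 and 17.4%, and DNase I 7 of 9 and 15.7%. DNase I alone marked 6 of 9 members and 1.76% of CpG-poor genes, and Benzonase or Cyanase without DNase I 0 of 9 and 5.01%. The part of base composition in the difference between the lists was not tested. The hepatocyte genes were CpG-poor in 14 of 15 cases, with a median ratio of 0.230, and all 14 were marked in each list. Of the marker lists described further on, 10 of 10 T and NK cell, 8 of 8 neutrophil, 5 of 5 erythroid and 6 of 7 B cell genes were CpG-poor. The count was 3 of 8 for stellate, 2 of 6 for bile duct and 6 of 10 for other tissue genes. CpG-poor TSSs were therefore not particular to the members.

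**Figure D3:**
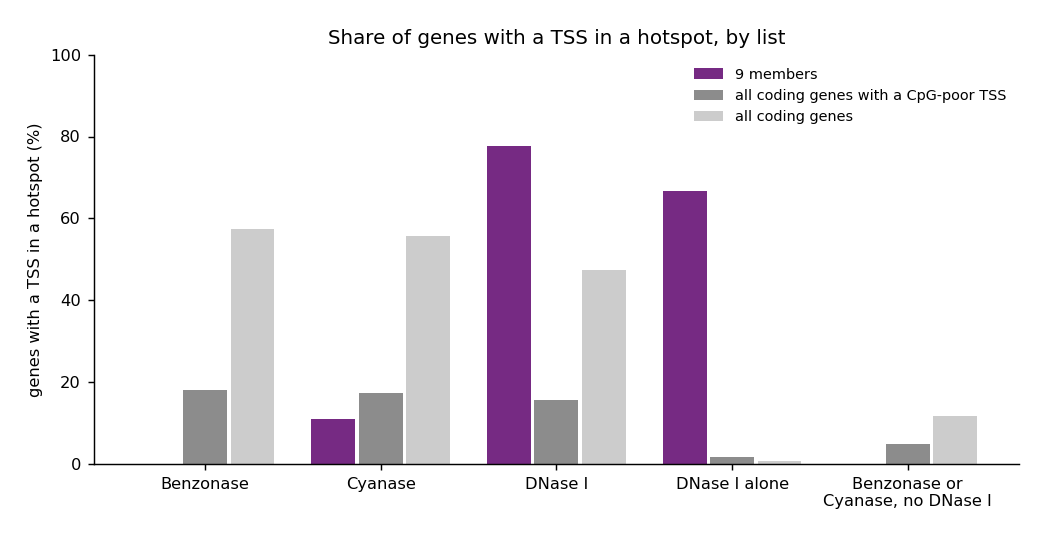
Percent of genes with a TSS in a hotspot of each list, in a DNase I hotspot alone, and in a Benzonase or Cyanase hotspot without DNase I, for the 9 members, all coding genes with a CpG-poor TSS and all coding genes. The members reached 77.8% for DNase I and 66.7% for DNase I alone, and 0 for Benzonase.

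The DNase I hotspots at the TSS varied in width. In the 6 members that DNase I alone marked, they had a median width of 538 bp (487 to 693 bp) and a median GC content of 48.0% (37.8 to 50.9%). All 194 coding genes marked in this way had a median width of 571 bp and a median GC content of 45.7%. The whole DNase I list had a median of 649 bp and a lower quartile of 537 bp. The hotspots of Lyz2 (487 bp) and Csf1r (497 bp) were below that quartile, those of Marco (538 bp) and Cd5l (539 bp) just above it, and those of Cd68 (683 bp) and Ptprc (693 bp) above the median.

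By class, 25 of the 49 regions in the windows were DNase I unique, 51.0% (95% Wilson interval 37.5 to 64.4, which covers counting error only), against 28.3% of all regions. Common regions made up 17 of 49, or 34.7% (interval 22.9 to 48.7), against 45.4%. Benzonase-Cyanase unique regions made up 7 of 49, or 14.3% (interval 7.10 to 26.7), against 26.3%. Of the common regions, 13 held hotspots of all 3 lists, 2 lacked Cyanase and 2 lacked Benzonase.

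When a region was counted for the gene of its nearest TSS, 28 of the 49 belonged to members. Of these, 17 were DNase I unique (60.7%, interval 42.4 to 76.4), 6 common (21.4%) and 5 Benzonase-Cyanase unique (17.9%). The 6 common regions lay at Csf1r, Clec4f and Ptprc, 2 at each. The 5 Benzonase-Cyanase unique regions lay at Sfpi1 with 2 and at Csf1r, Ptprc and Clec4f with 1 each. Among the 21 regions nearest to other genes, 11 were common and 8 DNase I unique (38.1%, interval 20.8 to 59.1). The share of DNase I unique regions was higher at the members than at their neighbours, but the intervals overlapped and the difference was not tested.

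The GC content of the regions followed their class. It averaged 45.2% (SD 5.46 across 25 regions) in DNase I unique, 53.6% (SD 5.28 across 17) in common and 57.9% (SD 7.57 across 7) in Benzonase-Cyanase unique regions of the windows. All regions of the genome averaged 42.3%, 49.5% and 54.7% in the same order. In the windows, 8 of the 25 DNase I unique, 3 of the 17 common and 3 of the 7 Benzonase-Cyanase unique regions lay below the median of their class. The lowest value among DNase I unique regions was 33.5% upstream of Lyz2, and the highest 54.6% downstream of Clec4f. Regions are not replicates, so these spreads are descriptions of the windows.

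**Figure D4:**
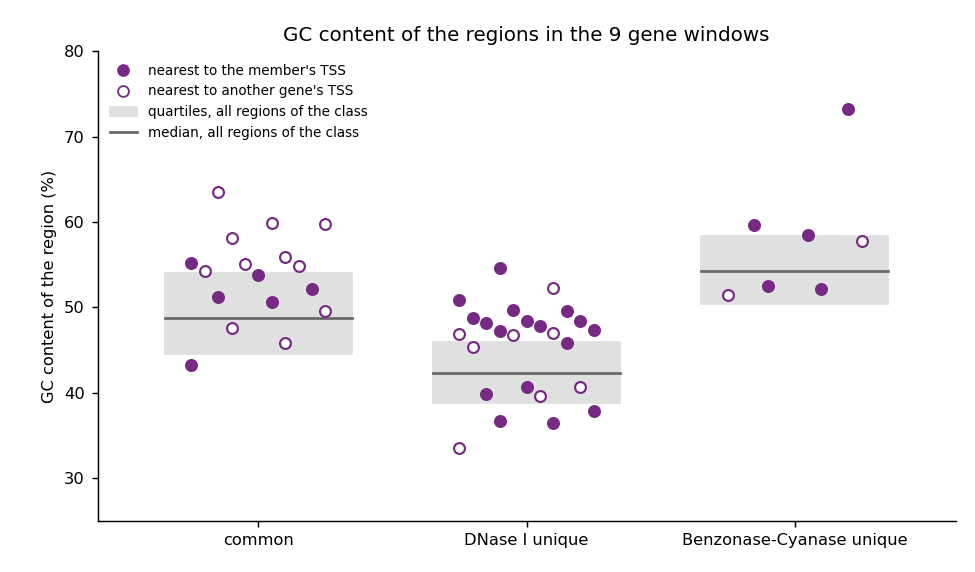
GC content in percent of each region in the 9 windows by class, filled where the nearest coding TSS was that of the member and open where it was another gene's; grey boxes and lines are the quartiles and the median over all regions of the class. The DNase I unique regions of the windows centred above the median of their class, 42.3%, with 17 of 25 above it.

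Motifs were counted in the central 300 bp of the regions on both strands. GAGGAA was present in 15 of the 25 DNase I unique regions of the windows, against 26.7% of all regions of that class, in 5 of 17 common regions (26.6%) and in 2 of 7 Benzonase-Cyanase unique regions (30.3%). Among regions nearest to a member TSS it was present in 11 of 17 DNase I unique, 1 of 6 common and 2 of 5 Benzonase-Cyanase unique regions. TGANTCA was present in 5 of 25 DNase I unique regions (13.5% of all in the class), and TTGCNNAA, the letters of C/EBP sites, also in 5 of 25 (24.9%). The longer GAGGAAGT was in 3 of 25 (3.58%). TATAAA was in 4 of 25 (20.3%) and GGGCGG in 1 of 25 (2.90%). Of the motifs searched in DNase I unique regions, GAGGAA was the most frequent one, in the windows and also over all regions of the class. Its presence was not tested as binding of PU.1 or of any other factor.

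Other macrophage genes gave a broader picture of the cell type. Of 33 such genes, 16 had a TSS in a Benzonase hotspot, 16 in a Cyanase hotspot and 20 in a DNase I hotspot. DNase I alone marked 4, Timd4 and Msr1, which encode receptors for dying cells and modified lipoproteins, Cybb, the catalytic subunit of the phagocyte oxidase, and Spic, a relative of PU.1 in macrophages that recycle iron. Benzonase and Cyanase without DNase I marked 1, Axl, a receptor tyrosine kinase. All 3 lists marked 14, and 12 were in no hotspot. Each of the rest was marked by DNase I together with either Benzonase or Cyanase. The Msr1 TSS was 205 bp from a Benzonase and 166 bp from a Cyanase hotspot, so that its place in this group rests on the strict rule that the TSS be covered. Among the 26 CpG-poor genes of this list, Benzonase marked 9, Cyanase 9 and DNase I 13.

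The direction seen in the 9 members, with more genes in the DNase I list, was therefore present but smaller in the other macrophage genes. Several macrophage genes are also active in hepatocytes, so hotspots shared by all 3 lists cannot be assigned to macrophages.

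Markers of other minor cells were counted in the same way. Of 10 sinusoidal endothelial genes, 7 were marked in the Benzonase list, 7 in the Cyanase list and 2 in the DNase I list, and Stab1, Kdr, Cdh5, Clec4g and Flt1 were marked by Benzonase and Cyanase but not by DNase I, although a DNase I hotspot came within 3 bp of the Kdr TSS and 69 bp of the Flt1 TSS. Of 8 stellate cell genes, 5 were marked by Benzonase, 6 by Cyanase and 1 by DNase I, and Lrat, Pdgfrb, Reln and Hand2 lay in hotspots of Benzonase and Cyanase but not of DNase I, while Des lay in a Cyanase hotspot alone. In these lists, as among all coding genes (57.4, 55.7 and 47.4%), DNase I marked the fewest TSSs, whereas it marked the most among the 9 members. In windows the endothelial genes had medians of 7.5 Benzonase, 7.5 Cyanase and 8.5 DNase I hotspots, and the stellate genes 2.5, 2.5 and 2, so that the contrast with the members held at the TSS but, for the endothelial genes, not in the windows. The median CpG ratio was 0.260 for the endothelial and 0.620 for the stellate genes, against 0.163 for the members, and 5, 5 and 2 of the 8 CpG-poor endothelial genes were marked by Benzonase, Cyanase and DNase I.

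Ptprc is also active in lymphocytes and neutrophils, and Lyz2 in neutrophils, so markers of these cells are given beside them. Of 10 T and NK cell genes, 1 was marked in the Benzonase list (Zap70) and 0 in the others, and Cd3e, Cd3g and Cd3d were in no hotspot. Of 7 B cell genes, 1 (Blnk) was marked in each list, and Cd79a, Cd79b and Ms4a1 in none. Of 8 neutrophil genes, Benzonase marked 1 (Elane), Cyanase 2 (Elane and S100a8) and DNase I 1 (Elane), and Mpo and S100a9 were in no hotspot. The part of these cells in the Ptprc and Lyz2 hotspots was not tested.

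Bile duct genes were marked in 2 of 6 cases by Benzonase (Krt19 and Sox9), 1 by Cyanase and 1 by DNase I (Sox9 in both). None of 5 erythroid genes, among them Alas2, Epb4.2 and Klf1, was marked in any list. Of 10 genes of other tissues, 1 was marked by Benzonase (Syn1), 2 by Cyanase (Syn1 and Gfap) and 1 by DNase I (Syn1), and Neurod1, Myh7 and Ins2 in none. Against these lists, 7 of 9 members at DNase I hotspots was the largest share of any list but the hepatocyte genes.

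**Figure D5:**
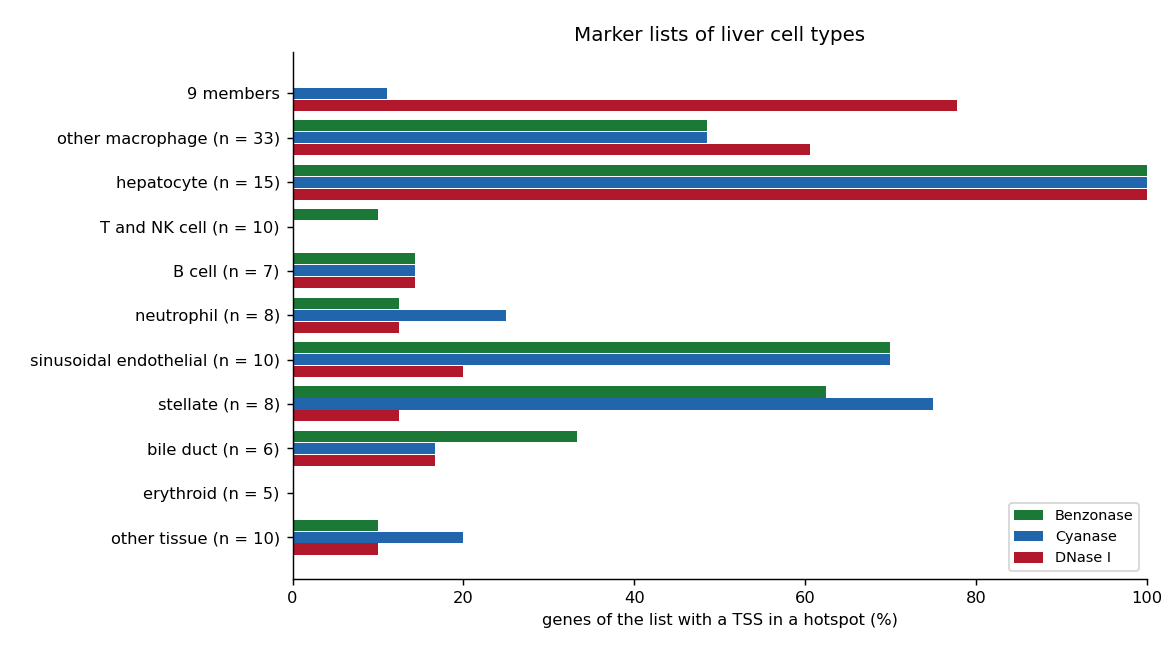
Percent of the genes of each marker list with a TSS in a Benzonase, Cyanase or DNase I hotspot, with the number of genes in brackets. The 9 members and the other macrophage genes had their longest bar for DNase I, and the sinusoidal endothelial and stellate genes their shortest.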

How the data were processed

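The hotspots of the 3 lists, which the authors had called at a false discovery rate of 0% from pooled libraries, were used as given on mm9 (NCBIM37). Gene bodies, exons and TSSs came from GENCODE M1. The 9 members and the marker lists were chosen with earlier results of these data known. Windows added 20 kb on either side of a gene body. Hotspots sharing at least 1 bp were merged into 94491 regions, and bedtools 2.31.1 gave the same number. A gene was marked when the TSS of any coding transcript lay in a hotspot. The CpG ratio was taken within 500 bp of the 5′ most TSS. Motifs were searched on both strands of the genome sequence. Wilson intervals were at 95%. Python 3.11.15 was used with numpy 2.4.6, scipy 1.17.1, pysam 0.24.0 and matplotlib 3.10.9.

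Named genes were all members, genes whose TSS lay in a hotspot within a member window, and up to 4 genes per marker list in list order, those marked by DNase I alone or without DNase I first. Axl, Blnk, Flt1, Hand2, Syn1, Fcrl1, Mybpc3, Lyz1, Vsig4, Mrc1, Csf1, Il34, Folr2, Laptm5 and Tg were named outside this rule after values had been seen.

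Leaving out a replicate could not be run because each list pools its libraries. Of the Cyanase hotspots, 2 end past the end of a chromosome and were kept. Some genes and sequences are not reported here.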

Additional observations from a re-analysis of the deposited data

How the results depend on the processing

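Of the alternative settings, 52 kept a value within the limit set for it and 26 moved it. The cause was not tested except where the change of window defines it. Hotspots in the member windows were 7 Benzonase, 8 Cyanase and 16 DNase I with gene bodies alone, 46, 46 and 68 with flanks of 50 kb, and 8, 10 and 23 when the nearest TSS had to be the member's. DNase I hotspots fell to 27 with flanks of 10 kb and to 28 without hotspots under the lower width quartile. Members at a TSS rose to 1 for Benzonase and 2 for Cyanase when a hotspot within 500 bp sufficed, Sfpi1 being the addition in both lists, and Cyanase fell to 0 without narrow hotspots. DNase I kept 7 members within 500 bp and 5 without narrow hotspots, and also 5 when each list was held to its widest 57675 hotspots, where Benzonase had 0 and Cyanase 1. Common regions were 6 when nearest to a member TSS, and the GC content of all 17 common regions in the windows was 58.9% in the central 150 bp. Within 500 bp, T and NK cell genes rose to 1 for Cyanase, neutrophil genes to 2 for Benzonase, sinusoidal endothelial genes to 4 for DNase I, bile duct genes to 2 for Cyanase and 2 for DNase I, erythroid genes to 1 for DNase I, and other tissue genes to 2 for Benzonase and 2 for DNase I. With CpG-poor set below 0.6, a limit chosen after seeing the data, the shares marked were 29.2% for Benzonase, 27.8% for Cyanase and 23.1% for DNase I.

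The lists give no measure of tag depth and no variation among animals. Hotspots next to other genes cannot be assigned to a member by position alone. The marker lists are short, and many of their genes are active in more than 1 cell type of the liver. The samples compare nuclease, tissue state and preparation together, so the lists can be described beside each other but the part of each cannot be separated. The members share CpG-poor TSSs, and the marker lists were not matched to them in composition.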

Other observations

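The windows of the other macrophage genes, taken in the same way, had medians of 2 Benzonase, 3 Cyanase and 5 DNase I hotspots, close to those of the 9 members. Those of the hepatocyte genes had 12, 11 and 11. Vsig4, a complement receptor of Kupffer cells, had no TSS in a hotspot but 1 Benzonase, 1 Cyanase and 5 DNase I hotspots in its window. Mrc1, the mannose receptor, which sinusoidal endothelial cells also make, had a TSS in all 3 lists and 4 Benzonase, 4 Cyanase and 9 DNase I hotspots. Cybb had 0, 1 and 6, and Msr1 2, 2 and 7. In the windows of some other genes of the same list, DNase I had fewer hotspots than either other enzyme. In the same order, Axl had 5, 6 and 2, Csf1 5, 4 and 3, Il34 5, 7 and 4, Folr2 3, 2 and 1, and Laptm5 2, 2 and 1. Single genes named here therefore do not stand for the whole list. Outside the macrophage genes, the window of Tg, which encodes thyroglobulin, held 0 Benzonase, 0 Cyanase and 9 DNase I hotspots, the closest of them 6442 bp from its TSS. DNase I hotspots in the absence of the other lists were therefore also found in a window drawn around a gene outside the macrophage lists. They were assigned to Tg by its window alone, and the other genes inside that window were not examined.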
